A study of Mus musculus with 11 samples.

Results

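The structural genes of Schwann cells and satellite glia studied here are 31 genes for glial membrane proteins, myelin, adhesion molecules, channels and lipid carriers. They were chosen by name for these roles, with earlier results of these data known, out of 49671 genes in the count table. They were matched through the symbols that the authors' deposited tables pair with gene identifiers. All 31 had enough counts to enter the test. RNA was sequenced from sorted adrenal cells of male mice of the strain labelled Nes-GFP, a reporter in which green fluorescent protein (GFP) marks cells in which the regulatory sequence of Nestin is active. Nestin is an intermediate filament gene of neural and other progenitors. The reporter therefore marks cells by Nestin activity and not by lineage. The groups were GFP-positive cortical cells (3 libraries), GFP-negative cortical cells (3 libraries), GFP-positive medullary cells (3 libraries) and GFP-negative medullary cells (2 libraries), and the labels name no treatment. Per the labels' protocols, cortical and medullary tissue was pooled from pairs of mice and small pools of cells were sorted straight into lysis buffer. In each cortical group, libraries 1 and 2 came from mice of about 3.5 months and library 3 from mice of about 2.5 months. GFP-positive medullary library 1 and both GFP-negative medullary libraries came from mice of 3.5 months, and GFP-positive medullary libraries 2 and 3 from mice of 2.5 months. The title of the study asks about Schwann cell precursors as a source of adrenal cortical and medullary cells. Within a tissue, GFP-positive cells were set against GFP-negative cells; within a gate, cortical cells were set against medullary cells; and the change with the gate was compared between the tissues.

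Schwann cells wrap or accompany peripheral axons, and satellite glia surround the cell bodies of peripheral neurons. Both descend from the neural crest and depend on the transcription factor Sox10. Myelinating Schwann cells build a compacted sheath from proteins such as Mbp and Pmp22, while non-myelinating Schwann cells carry L1cam, Ncam1, Ngfr and Gfap and make little compact myelin. In the adrenal gland, glia lie along the nerve fibres that enter through the cortex to reach the chromaffin cells of the medulla, the catecholamine-secreting cells.

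Levels are given as CPM, the usual unit of counts scaled to library size, here after TMM normalization, and a gene was called changed at a Benjamini-Hochberg adjusted p below 0.05 in edgeR's quasi-likelihood test over 20893 genes. Total counts per library lay between 18500690 and 29204212, and 3 counts in 1 library corresponded to 0.104 to 0.157 CPM. Nes stood at 50.9, 35.3 and 47.4 CPM in GFP-positive and 4.59, 7.16 and 7.44 CPM in GFP-negative cortical libraries, and at 78.7, 178 and 69.2 CPM in GFP-positive and 16.1 and 26.1 CPM in GFP-negative medullary ones. It followed the gate without overlap in both tissues. Sox10, which was not among the 31 genes, stood at 9.00, 11.8 and 17.5 CPM in GFP-positive cortical libraries and 0, 0.330 and 0 CPM in GFP-negative cortical ones. In the medulla Sox10 stood at 69.0, 158 and 60.6 CPM in GFP-positive libraries, and no GFP-negative medullary library held a count. The summed level of 6 defining genes of Schwann cells and satellite glia outside the 31 (Sox10, Erbb3, Foxd3, Ngfr, Gfap and Egr2) was 26.2 to 39.6 CPM in GFP-positive and 2.84 to 7.67 CPM in GFP-negative cortical libraries. In the medulla that sum was 319.5 to 793 CPM in GFP-positive and 30.5 to 49.1 CPM in GFP-negative libraries. Of these 6 genes, 4 rose with the gate in the cortex and 5 in the medulla, and Egr2, a myelination factor also induced by stimulation in other cells, rose in neither. Other cell types were present in the same libraries. Steroidogenic genes summed to 64401 to 74032 CPM in GFP-positive cortical cells against 36955 to 41821 CPM in GFP-negative ones, and to 23756 to 42159 CPM in GFP-positive medullary cells against 9070.1 to 16798 CPM in GFP-negative ones. Of the 10 steroidogenic genes, 4 rose and 2 fell in the cortex, and 6 rose and 2 fell in the medulla. Macrophage genes, 10 of 10 of which fell in both tissues, summed to 47.6 to 278 CPM in GFP-positive and 3512 to 4936 CPM in GFP-negative cortical cells. In the medulla they summed to 403 to 1203 CPM in GFP-positive and 18077 to 20592 CPM in GFP-negative cells. Pericyte and smooth muscle genes rose for 5 of 9 in the cortex, with sums of 62.4 to 235 CPM in GFP-positive and 2.05 to 6.24 CPM in GFP-negative cells, and for 2 of 9 in the medulla, with sums of 110.0 to 269 CPM in GFP-positive and 134 to 149 CPM in GFP-negative cells. Fibroblast genes summed to 45.7 to 111 CPM in GFP-positive and 3.51 to 24.4 CPM in GFP-negative cortical cells, where 1 of 6 tested rose, and to 66.8 to 301 CPM in GFP-positive and 63.6 to 64.3 CPM in GFP-negative medullary cells, where 1 rose and 2 fell. The 6 melanocyte genes summed to 0.811 to 4.81 CPM in GFP-positive and 4.21 to 6.17 CPM in GFP-negative cortical cells, and to 5.74 to 14.8 CPM in GFP-positive and 15.0 to 17.9 CPM in GFP-negative medullary cells, and neither of the 2 tested was called. Endothelial genes summed to 71.9 to 210 CPM in GFP-positive and 65.9 to 177 CPM in GFP-negative cortical cells. In the medulla their sums were 204 to 306 CPM in GFP-positive and 264 to 903 CPM in GFP-negative cells. Of the 8 endothelial genes, none was called with the gate in either tissue. Erythroid genes summed to 812 CPM in GFP-positive cortical library 1 and to less than 2 CPM in every other library. Of all genes tested, 7.14% were called higher and 7.59% lower with the gate in the cortex, and 10.2% and 11.1% in the medulla. The part of these other cell types in the results was not tested.

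Most of the 31 glial genes were higher in GFP-positive cells, in both tissues, and none was called lower. In the cortex 20 of 31 rose, where 7.14% of all genes tested were called higher, 7.59% lower and 14.7% in either direction. The median log2 change of the 31 was 4.08, against 0.03 over all genes tested. In the medulla 25 of 31 rose, where 10.2% of all genes were called higher, 11.1% lower and 21.4% in either direction, with a median log2 change of 4.55 against 0.09 over all genes. Every GFP-positive library stood above every GFP-negative one for 22 of the 31 in the cortex (18.8% of all genes) and for 25 in the medulla (25.6% of all genes). The reverse held for 2 genes in the cortex (19.4% of all genes) and 1 in the medulla (22.5% of all genes). Over all genes, 38.2% in the cortex and 48.1% in the medulla showed no overlap in 1 direction or the other. The 31 were listed with earlier results of these data known, so these counts describe the list and do not test it. The shares of all genes given here also stand beside the counts by role below. These are bulk libraries, so fewer cells of a type and less RNA per cell cannot be told apart. The labels tie no library to a mouse or pool, so p-values measure the spread between libraries, which may in part be technical.

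Between GFP-positive cells, most of the 31 genes stood lower in the cortex than in the medulla. There 23 of 31 fell and none rose, where 9.45% of all genes were called lower, 6.04% higher and 15.5% in either direction, and the median log2 change was -3.0 against -0.03 over all genes. All cortical GFP-positive libraries stood below all medullary ones for 24 genes (18.5% of all genes did so), and no gene showed the reverse (16% of all genes did so, and 34.5% in either direction). The summed level of the 31 was 1351, 1799 and 1684 CPM in GFP-positive cortical libraries 1 to 3 and 10308, 19100 and 8286 CPM in GFP-positive medullary ones. GFP-negative cortical libraries summed to 624, 616 and 554 CPM, and GFP-negative medullary ones to 732 and 575 CPM. GFP-positive medullary library 2 was the highest of its group for 29 of the 31 genes, against 38.1% of all genes. Without it, 17 of the 31 were called lower in cortical GFP-positive cells and 24 were still called higher with the gate in the medulla. Age is shared between gates in the cortex. It is partly confounded with the gate in the medulla and with the tissue within each gate. With age in the model, the calls of Fabp7, Scn7a, Lgi4, Gap43 and Art3 between GFP-positive cells were lost (adjusted p of 0.0690 to 0.142). All 20 genes called in the cortex were higher in GFP-positive cells at both ages (1 library against 1 at 2.5 months, 2 against 2 at 3.5 months). All 25 called in the medulla were higher in the 1 GFP-positive library of 3.5 months than in both GFP-negative ones, and neither GFP-negative medullary library came from 2.5-month mice. Every one of these called genes already separated the gates without overlap over all libraries. The counts by age follow from that and are no separate check on age.

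**Figure D1:**
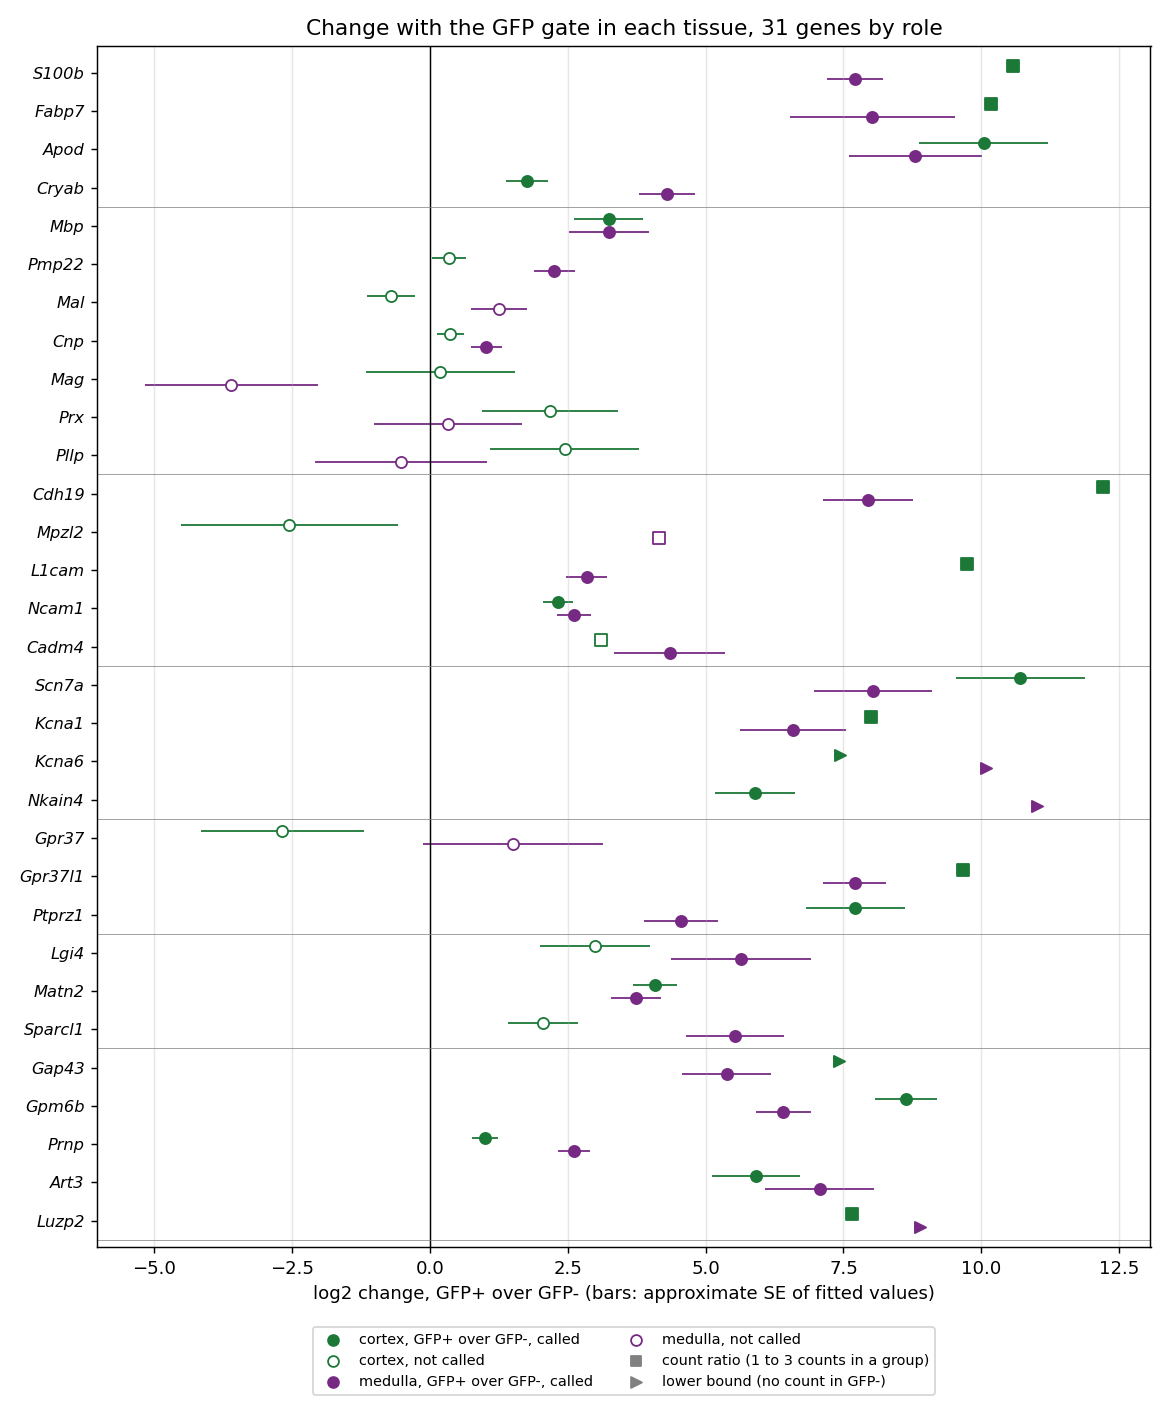
Log2 change of each of the 31 glial genes with the GFP gate (x axis, GFP-positive over GFP-negative) in cortex (green) and medulla (purple), grouped by role, with bars for the approximate standard error (SE) of fitted changes, squares for ratios resting on 1 to 3 counts in a group and triangles for lower bounds. Filled symbols are called genes, 20 in the cortex and 25 in the medulla, and 6 of the 7 myelin genes have open symbols in the cortex.

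The soluble and lipid-carrying proteins showed some of the widest separations. S100b is a calcium-binding protein used as a glial marker, Fabp7 is a fatty acid carrier of immature glia, Apod is a secreted lipocalin that binds lipids and is made by Schwann cells, and Cryab is a small heat-shock chaperone. Apod stood at 40.5, 339 and 73.6 CPM in GFP-positive cortical libraries 1 to 3, against 0.0373, 0.367 and 0 CPM in GFP-negative ones. In the medulla Apod stood at 3025, 5828 and 2278 CPM in GFP-positive libraries and 8.62 and 7.96 CPM in GFP-negative ones. GFP-positive libraries were far above GFP-negative ones in both tissues, and cortical library 2 stood well above the other 2 GFP-positive cortical libraries. S100b stood at 14.5, 20.4 and 22.3 CPM in GFP-positive cortical cells, whose GFP-negative counterparts held 1 count in all. S100b in the medulla was 262, 541 and 264 CPM in GFP-positive and 1.31 and 2.07 CPM in GFP-negative libraries. Without overlap in either tissue, S100b was even among the GFP-positive cortical libraries. Fabp7 was uneven there, at 4.99, 71.3 and 9.01 CPM in GFP-positive cortical libraries against 0, 0.0734 and 0 CPM in GFP-negative ones. Medullary Fabp7 stood at 98.3, 750.2 and 547 CPM in GFP-positive libraries and 1.90 and 1.67 CPM in GFP-negative ones. Library 2 was the high one in the cortex and library 1 the low one in the medulla. Cryab was detected in every group, with 92.9, 106 and 81.4 CPM in GFP-positive and 18.3, 32.6 and 31.9 CPM in GFP-negative cortical libraries, and 1283, 1751 and 581 CPM in GFP-positive and 76.9 and 45.3 CPM in GFP-negative medullary ones. GFP-positive libraries were higher without overlap in each tissue. Of the exon bases of Cryab, 17.0% are shared with Hspb2 on the opposite strand, and the library method marks no strand, so reads of that stretch cannot be told apart.

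All 4 of these genes rose with the gate in both tissues and all 4 were lower in cortical than in medullary GFP-positive cells. S100b rose 1517-fold (95% counting interval 272 to 59975) in the cortex (adjusted p = 3.8e-05), a ratio that rests on 1 GFP-negative count in library 2; without that library it was at least 332-fold. In the medulla S100b rose by 7.72 ± 0.51 on the log2 scale (approximate SE, here and below; adjusted p = 2.66e-05). Fabp7 rose 1153-fold (95% counting interval 319 to 9529) in the cortex (adjusted p = 0.00465), but with limma voom the adjusted p was 0.377. Its 2 GFP-negative counts were both in library 2, without which the ratio was at least 505-fold, and 277-fold, with an interval of 76.2 to 2301, without GFP-positive library 2. Apod rose in the cortex (log2 change 10.04 ± 1.17, adjusted p = 0.000546), and limma voom gave an adjusted p of 0.154. The change of Apod there was 8018-fold, with an interval of 1439 to 316743, without GFP-negative library 2, which leaves 1 count, and a log2 change of 8.64 without GFP-positive library 2. Cryab rose less, in the cortex (log2 change 1.76 ± 0.38, adjusted p = 0.0128; limma voom adjusted p = 0.0559) and in the medulla (log2 change 4.30 ± 0.51, adjusted p = 0.000324). Between GFP-positive cells, cortex over medulla, S100b fell by 4.22 ± 0.35 (adjusted p = 0.000196) and Cryab fell by 3.69 ± 0.41 (adjusted p = 0.000525). Apod fell by 4.62 ± 0.82 (adjusted p = 0.00484), and its log2 change was -5.99 without cortical library 2. Fabp7 fell by 4.03 ± 1.01 (adjusted p = 0.0234). Its change was -6.03 without cortical library 2. The Fabp7 call was lost with age in the model and without cortical library 1, cortical library 3 or medullary library 2, at adjusted p of up to 0.142.

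**Figure D2:**
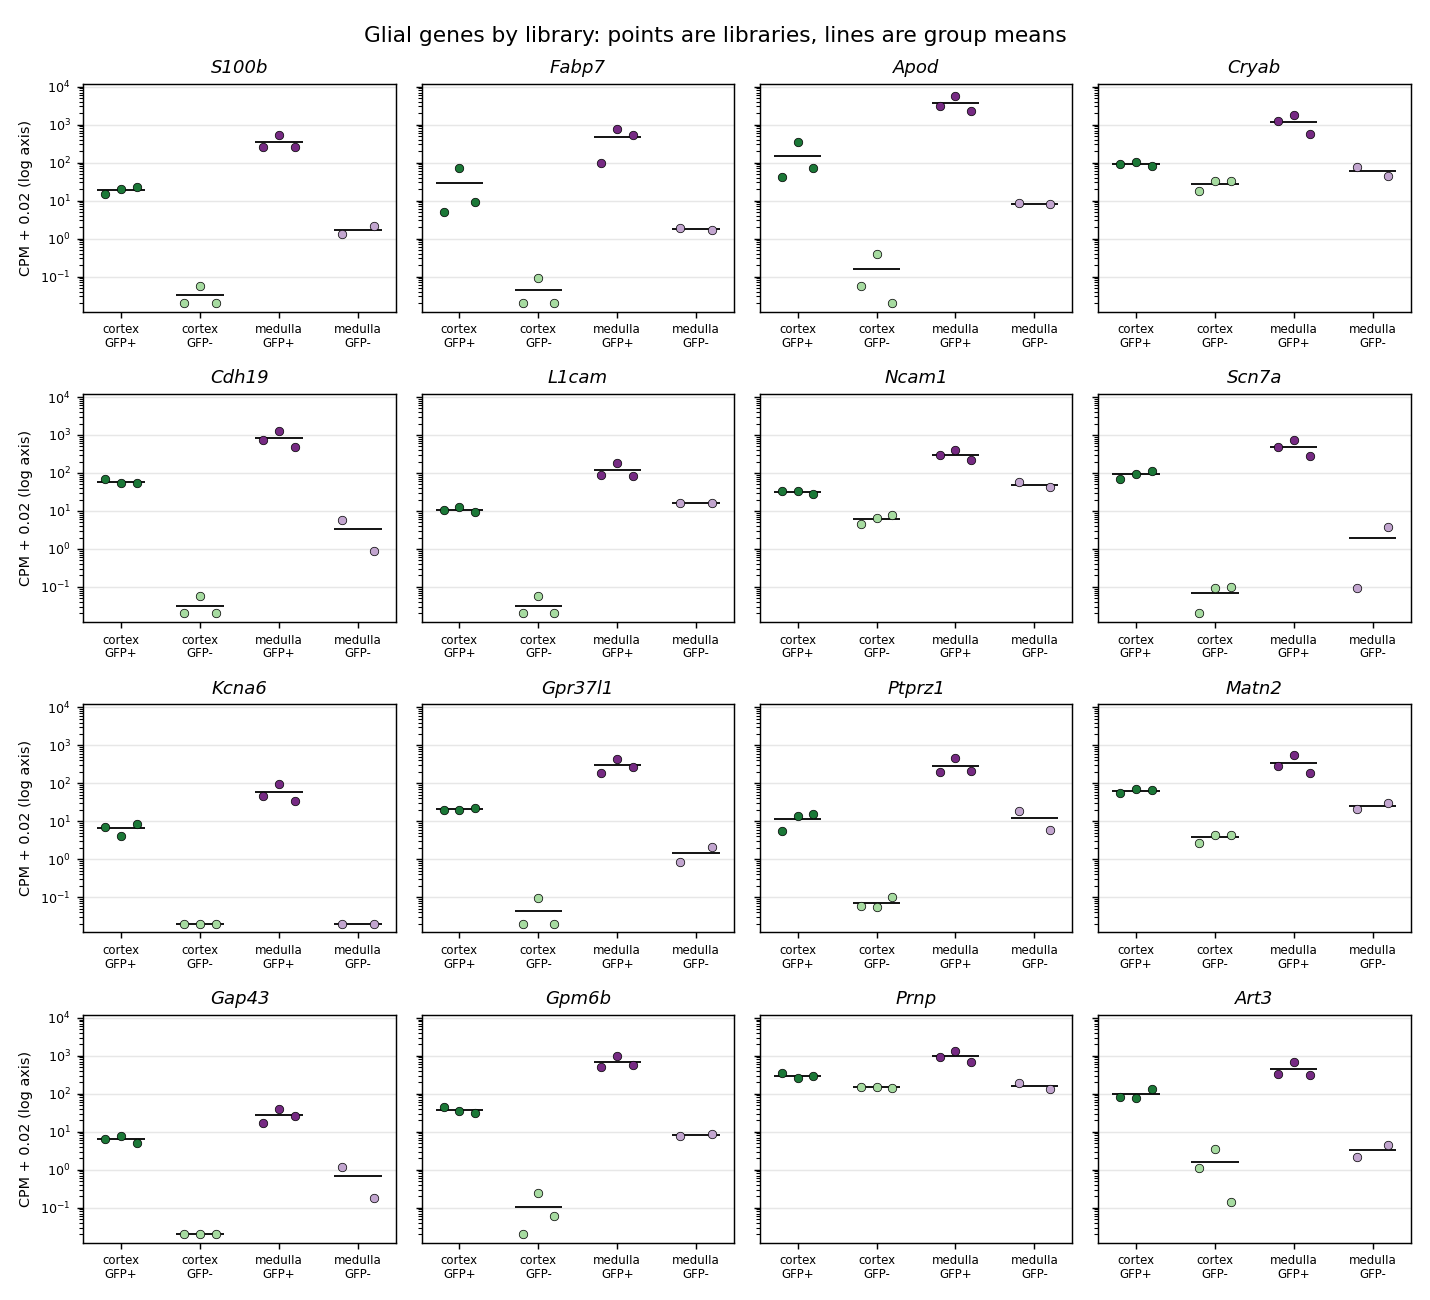
CPM per library (log axis) of 16 of the 31 glial genes in GFP-positive and GFP-negative cortical and medullary cells, with points for libraries and lines for group means, after adding a small constant so that 0 can be drawn. GFP-positive medullary libraries are the highest for all 16 genes, and for S100b the GFP-positive cortical libraries lie at 14.5 to 22.3 CPM with 1 count in all GFP-negative cortical libraries.

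The stretches just before the starts are shown for 3 of the 4 lipid and soluble genes, and for Gpm6b among the membrane genes, which separated widely by the gate. They are the 250 bases upstream of the annotated start from RefSeq (build GRCm38.p6), written 5′ to 3′ on the gene's own strand. Capitals mark ACAAAG or ACAATG, core letters bound by Sox family proteins, searched on both strands.
Apod, chr16:31314809-31315058, minus strand: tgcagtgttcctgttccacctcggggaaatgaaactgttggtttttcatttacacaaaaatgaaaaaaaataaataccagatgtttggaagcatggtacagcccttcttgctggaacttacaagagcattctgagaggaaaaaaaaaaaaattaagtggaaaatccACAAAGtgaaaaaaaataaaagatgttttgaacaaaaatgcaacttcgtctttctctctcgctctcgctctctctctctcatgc
Gpm6b, chrX:166238693-166238942, plus strand: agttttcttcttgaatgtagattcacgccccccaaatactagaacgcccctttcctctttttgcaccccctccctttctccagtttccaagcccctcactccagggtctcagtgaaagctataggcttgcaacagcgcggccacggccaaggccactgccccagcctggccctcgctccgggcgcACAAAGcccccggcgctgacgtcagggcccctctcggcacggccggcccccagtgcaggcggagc
S100b, chr10:76253586-76253835, plus strand: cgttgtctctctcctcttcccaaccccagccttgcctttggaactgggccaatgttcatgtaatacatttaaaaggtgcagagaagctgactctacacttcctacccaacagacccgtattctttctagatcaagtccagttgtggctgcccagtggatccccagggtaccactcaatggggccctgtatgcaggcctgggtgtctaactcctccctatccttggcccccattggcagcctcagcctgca
Fabp7, chr10:57784673-57784922, plus strand: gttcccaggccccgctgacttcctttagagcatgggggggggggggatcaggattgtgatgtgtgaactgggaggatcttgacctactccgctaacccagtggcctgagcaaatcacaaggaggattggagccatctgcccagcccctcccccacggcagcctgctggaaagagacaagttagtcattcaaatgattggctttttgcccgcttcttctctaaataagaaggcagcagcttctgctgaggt
Apod carries ACAAAG starting 84 bases before its start and Gpm6b carries ACAAAG starting 65 bases before, while the windows of S100b and Fabp7 hold neither motif. Scn7a and Gpr37l1 rose more than Gpm6b with the gate in both tissues, and their windows, not printed, hold neither motif. The printed windows are therefore no measure of how common the motif is among widely separated genes. RefSeq promoter windows were matched for 20 of the 31 genes, 28 windows in all. Of these, 7 held a motif (25.0%), in Art3, Cadm4, Mag, Cnp, Apod and Gpm6b, against 25.2% of 32851 windows of the same length over all genes. A match is a description of the letters only.

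Of the 7 myelin and sheath genes, Mbp alone rose in the cortex, where 7.14% of all genes tested were called higher. In the medulla Mbp, Pmp22 and Cnp rose, where 10.2% of all genes were called higher. The cortical count of 1 in 7 is too small to set apart from that share. Mbp, which compacts the cytoplasmic faces of the myelin membrane, stood at 19.8, 49.7 and 70.0 CPM in GFP-positive and 1.46, 5.65 and 7.60 CPM in GFP-negative cortical libraries. Its medullary levels were 193, 376 and 156 CPM in GFP-positive and 21.8 and 28.9 CPM in GFP-negative libraries. The gates did not overlap in either tissue, and the GFP-positive cortical libraries spread widely. Mbp rose in the cortex (log2 change 3.25 ± 0.63, adjusted p = 0.00697) and in the medulla (log2 change 3.25 ± 0.72, adjusted p = 0.00998), where the call was lost without either GFP-negative library, at adjusted p of up to 0.0726. Pmp22, a compact myelin protein with wide low expression outside glia, stood at 279.7, 295 and 400.0 CPM in GFP-positive and 309.8, 236 and 219.8 CPM in GFP-negative cortical libraries. In the medulla Pmp22 stood at 711, 1294 and 486 CPM in GFP-positive and 184 and 164 CPM in GFP-negative libraries. The cortical gates overlapped and the medullary ones did not. Pmp22 rose in the medulla (log2 change 2.26 ± 0.38, adjusted p = 0.00221) and was not called in the cortex (log2 change 0.35 ± 0.31, adjusted p = 0.497). The difference between the tissues in that change did not pass edgeR's test either (log2 difference -1.91, adjusted p = 0.0788), but was called with DESeq2, with no filter and without GFP-positive medullary library 3 (adjusted p down to 0.00191). Cnp, an enzyme of non-compact myelin, stood at 74.3, 71.2 and 117 CPM in GFP-positive and 61.6, 72.2 and 68.9 CPM in GFP-negative cortical libraries, and at 85.0, 157 and 101 CPM in GFP-positive and 59.6 and 52.6 CPM in GFP-negative medullary ones. Cnp was detected in every library, and the gates overlapped in the cortex and not in the medulla. Its rise in the medulla (log2 change 1.02 ± 0.29, adjusted p = 0.0285) was lost with age in the model (adjusted p = 0.0935) and without either GFP-negative library or GFP-positive library 2, at adjusted p of up to 0.152.

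The other 4 myelin genes were not called in either tissue. Mal, a proteolipid of myelin and of epithelial membranes, stood at 28.2, 43.6 and 42.8 CPM in GFP-positive and 56.5, 66.8 and 62.7 CPM in GFP-negative cortical libraries. All GFP-positive cortical libraries were thus the lower ones, but the change was not called (log2 change -0.70 ± 0.43, adjusted p = 0.314). In the medulla Mal stood at 50.4, 65.9 and 31.3 CPM in GFP-positive and 33.0 and 8.16 CPM in GFP-negative libraries (log2 change 1.26 ± 0.50, adjusted p = 0.104). Mag, the adhesion protein facing the axon, Prx, the periaxin scaffold of myelinating Schwann cells, and Pllp, the proteolipid plasmolipin, were low in most libraries. Mag stood at 0, 0.258 and 3.74 CPM in GFP-positive and 2.24, 0.441 and 0.827 CPM in GFP-negative cortical libraries, and at 0.671, 0.522 and 0.0522 CPM in GFP-positive and 3.94 and 6.30 CPM in GFP-negative medullary ones. Both GFP-negative medullary libraries were the higher ones for Mag (log2 change -3.60 ± 1.56, adjusted p = 0.133), a change that limma voom called (adjusted p = 0.0444). Prx stood at 0.534, 2.36 and 5.40 CPM in GFP-positive and 0.411, 0.587 and 0.827 CPM in GFP-negative cortical libraries (log2 change 2.18 ± 1.23, adjusted p = 0.269), and at 0.774, 1.6 and 0.522 CPM in GFP-positive and 1.53 and 0 CPM in GFP-negative medullary ones. Pllp stood at 0.0891, 2.28 and 2.03 CPM in GFP-positive and 0, 0.441 and 0.354 CPM in GFP-negative cortical libraries (log2 change 2.44 ± 1.35, adjusted p = 0.257), with no medullary library above 0.244 CPM. Of the exon bases of Pllp, 54.2% are shared with the transcript RP24-97K3.3 on the opposite strand.

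Among GFP-positive cortical libraries, library 3 was the highest for 5 of the 7 myelin genes (all but Mal and Pllp), as for 30.5% of all genes tested. Library 1 was the lowest for 6 of the 7 (all but Cnp), as for 30% of all genes. Library 1 also held the 812 CPM of erythroid genes, against 0.215 and 0.135 CPM in libraries 2 and 3, and 214 CPM of chromaffin and neuronal genes, against 27.3 and 27.0 CPM. Their part was not tested. Ncmap, a non-compact myelin protein outside the 31 genes, picked after its values were seen, was likewise highest in library 3 and lowest in library 1. It stood at 0, 5.03 and 12.4 CPM in GFP-positive cortical libraries and at 0.258, 0.104 and 0.209 CPM in GFP-positive medullary ones. Other glial genes outside the 31 did not all follow this order. In GFP-positive cortical libraries 1 to 3, Fa2h did, at 0, 0.816 and 0.946 CPM. Drp2 (0.0445, 1.42 and 0 CPM) and Cmtm5 (9.40, 14.6 and 7.88 CPM) were lowest in library 3. Cortical libraries 1 and 2 came from 3.5-month mice and library 3 from 2.5-month mice, and with 1 library of the younger age in the group its part was not tested.

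**Figure D3:**
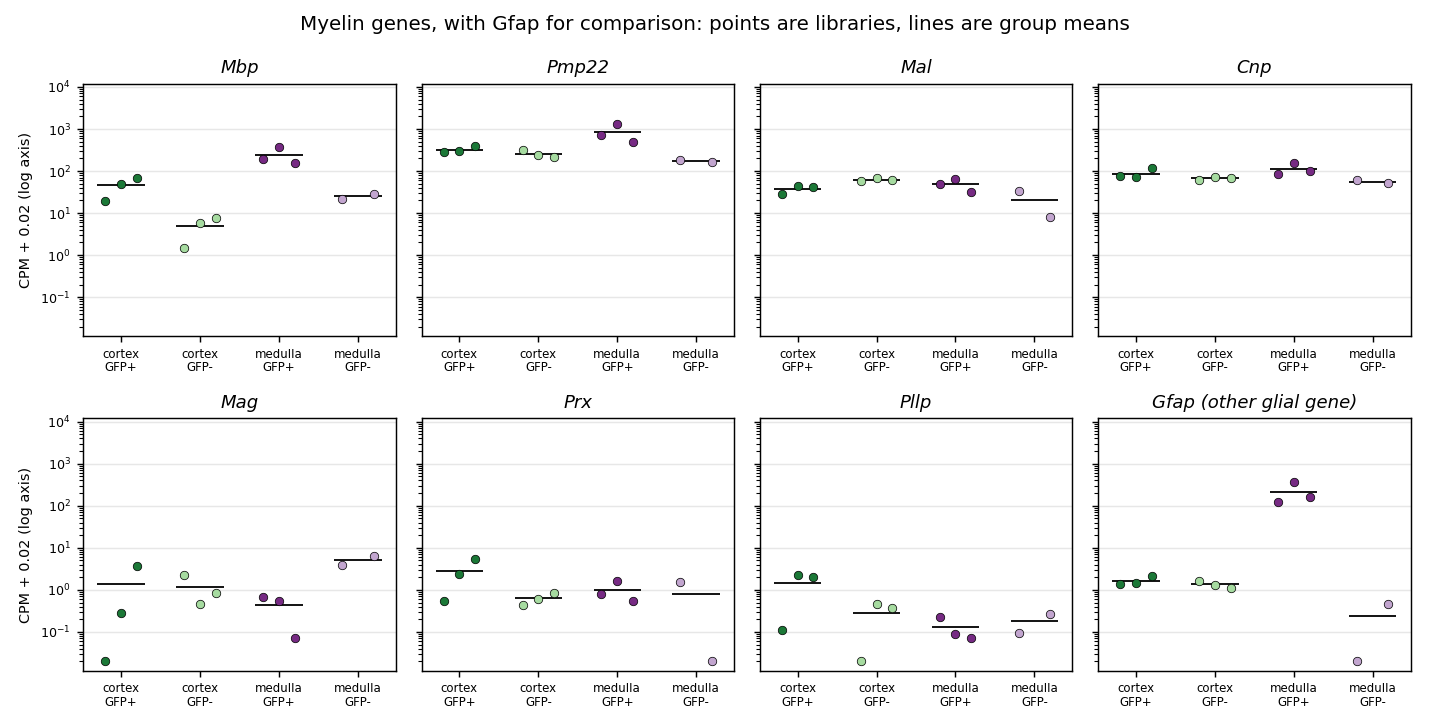
CPM per library (log axis) of the 7 myelin and sheath genes and of Gfap in GFP-positive and GFP-negative cortical and medullary cells, with points for libraries and lines for group means. Mal, Cnp and Pmp22 are detected in every library, while Mag in GFP-positive cortical cells runs between 0 and 3.74 CPM.

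Adhesion genes rose for 3 of 5 in the cortex and 4 of 5 in the medulla. Cdh19, a cadherin of the Schwann cell lineage, stood at 69.5, 54.6 and 53.7 CPM in GFP-positive cortical libraries, against 1 count in the 3 GFP-negative ones. In the medulla Cdh19 stood at 758, 1275 and 492 CPM in GFP-positive and 5.92 and 0.853 CPM in GFP-negative libraries. No overlap was seen and the cortical GFP-positive values were tight. Cdh19 rose 4704-fold (95% counting interval 844 to 185835) in the cortex (adjusted p = 0.000163), and at least 1030.2-fold without GFP-negative library 2, which held the 1 count. It also rose in the medulla (log2 change 7.94 ± 0.82, adjusted p = 0.000166), by 9.94 without GFP-negative library 1 and 7.15 without GFP-negative library 2. Ncam1, an adhesion molecule of non-myelinating Schwann cells, neurons and chromaffin cells, stood at 33.8, 33.0 and 27.7 CPM in GFP-positive and 4.52, 6.57 and 7.68 CPM in GFP-negative cortical libraries. Medullary Ncam1 stood at 289, 405 and 215 CPM in GFP-positive and 57.7 and 41.6 CPM in GFP-negative libraries. Ncam1 was present in all 4 groups, higher in GFP-positive cells without overlap, in the cortex (log2 change 2.33 ± 0.27, adjusted p = 0.000546) and in the medulla (log2 change 2.61 ± 0.31, adjusted p = 0.000356). Cadm4, which joins Schwann cells to axons along the internode, was low, at 0.401, 0.387 and 0.180 CPM in GFP-positive and 0.0373, 0.0367 and 0.0394 CPM in GFP-negative cortical libraries. In the medulla Cadm4 stood at 4.85, 10.5 and 1.88 CPM in GFP-positive and 0.0731 and 0.487 CPM in GFP-negative libraries. The gates did not overlap in either tissue. Cadm4 rose in the medulla (log2 change 4.35 ± 1.00, adjusted p = 0.012), by 3.55 without GFP-negative library 1 (adjusted p = 0.0612, not called), 3.57 without GFP-positive library 2 and 88.1-fold, with an interval of 24.2 to 729.7, without GFP-negative library 2. Its cortical ratio of 8.57-fold (95% counting interval 2.58 to 44.7) was not called (adjusted p = 0.0632), though it was under 4 of 18 alternatives (adjusted p down to 0.0428). Mpzl2, an adhesion protein of the immunoglobulin superfamily, was at 0 or below 1 CPM in all 11 libraries and was not called in the cortex (log2 change -2.55 ± 1.97, adjusted p = 0.427) or medulla (adjusted p = 0.355), and 30.7% of its exon bases lie opposite another annotated transcript.

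L1cam was the only one of the 31 genes whose change with the gate differed between the tissues by edgeR's test, against 10 of the 31 with DESeq2. L1cam (mm10 chrX:73853778-73896105, minus strand), an adhesion molecule of axons and non-myelinating Schwann cells, stood at 10.4, 12.6 and 9.14 CPM in GFP-positive and 0, 0.0367 and 0 CPM in GFP-negative cortical libraries. In the medulla it stood at 89.3, 179.6 and 85.7 CPM in GFP-positive libraries and 16.3 and 16.6 CPM in GFP-negative ones. GFP-positive libraries were higher in both tissues, but GFP-negative medullary cells carried more than GFP-positive cortical cells while GFP-negative cortical cells held 1 count in all. L1cam rose 853-fold (95% counting interval 153 to 33749.9) in the cortex (adjusted p = 3.8e-05), or at least 187-fold without GFP-negative library 2, which held that count. It rose 7.18-fold in the medulla (log2 change 2.84 ± 0.37, adjusted p = 0.00056). The fitted difference between the log2 changes, cortex minus medulla, was 6.40 (adjusted p = 0.0111), in a test that called 1.61% of all genes, 0.857% as higher and 0.756% as lower. Its size rests on the 1 count behind the wide cortical interval, so no SE is given. Without GFP-negative cortical library 2 no GFP-negative cortical count is left, so the size of the difference is then not given. Limma voom did not call it (adjusted p = 0.154). L1cam and Ncam1 are also made by chromaffin cells and neurons, whose 18 markers summed to 214, 27.3 and 27.0 CPM in GFP-positive and 11.6 to 23.2 CPM in GFP-negative cortical libraries. In the medulla they summed to 7516 to 13124 CPM in GFP-positive and 6238 to 9848 CPM in GFP-negative libraries. Of the 18, Pnmt alone had no count in GFP-positive cortical cells. Of them 4 were called higher with the gate in the cortex (7.14% of all genes) and 1 in the medulla (10.2% of all genes). Every GFP-positive library stood above every GFP-negative one for 2 of the 18 in the cortex (18.8% of all genes). The same held for 13 of the 18 in the medulla (25.6% of all genes), where their median log2 change was 0.83. GFP-positive cortical library 2 held 27.3 CPM of these markers and the highest L1cam of its group. The part of chromaffin and neuronal RNA in the L1cam difference was not tested.

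All 4 channel and pump-associated genes rose with the gate in both tissues. Scn7a, an atypical sodium channel of non-myelinating Schwann cells, stood at 69.6, 93.6 and 116 CPM in GFP-positive cortical libraries, against 0, 0.0734 and 0.0788 CPM in GFP-negative ones. In the medulla Scn7a stood at 481, 719.9 and 277 CPM in GFP-positive and 0.0731 and 3.74 CPM in GFP-negative libraries. The gates were far apart in both tissues, and the GFP-negative medullary libraries differed from each other. Scn7a rose in the cortex (log2 change 10.71 ± 1.17, adjusted p = 0.000416) and in the medulla (log2 change 8.04 ± 1.07, adjusted p = 0.000637), by 7.04 without GFP-negative library 1 and 7188-fold, with an interval of 1989.7 to 59357, without GFP-negative library 2. The potassium channel gene Kcna1 stood at 6.37, 6.49 and 6.40 CPM in GFP-positive cortical libraries, against 2 counts in GFP-negative library 3 and none in the other 2. In the medulla Kcna1 stood at 17.8, 40.8 and 16.7 CPM in GFP-positive and 0.0365 and 0.487 CPM in GFP-negative libraries. Kcna1 was the evenest of these genes among cortical GFP-positive libraries. It rose 255-fold (95% counting interval 70.1 to 2111) in the cortex (adjusted p = 0.000851; at least 116-fold without GFP-negative library 3) and by 6.58 ± 0.96 in the medulla (adjusted p = 0.00112; 5.67 without GFP-negative library 1 and 747-fold, with an interval of 134 to 29539, without GFP-negative library 2). Kcna6, a related potassium channel, had no count in any GFP-negative library of either tissue. Its GFP-positive levels were 7.13, 4.04 and 8.60 CPM in the cortex and 45.9, 94.2 and 33.3 CPM in the medulla, at least 173-fold (adjusted p = 0.000922) and at least 1091-fold (adjusted p = 0.000339) above a group total of 3 counts, used as the floor. The floors and counting intervals cover counting error only, since PCR copies of a molecule were not marked and are counted separately. Of the exon bases of Kcna6, 39.6% lie opposite the transcript Gm26673. Nkain4, which encodes a protein that binds the sodium pump, stood at 9.22, 9.06 and 5.04 CPM in GFP-positive and 0.336, 0 and 0.0394 CPM in GFP-negative cortical libraries, with 73.5, 165 and 95 CPM in GFP-positive medullary libraries and no count in GFP-negative ones. It rose in the cortex (log2 change 5.89 ± 0.72, adjusted p = 0.000981; 411-fold, with an interval of 73.4 to 16247, without GFP-negative library 1) and at least 2059-fold in the medulla (adjusted p = 0.00013).

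Of the receptor-type genes, Gpr37l1 and Ptprz1 rose in both tissues and Gpr37 in neither. Gpr37l1, an orphan receptor of glia, stood at 19.5, 20.4 and 21.8 CPM in GFP-positive cortical libraries, against 2 counts in GFP-negative library 2 and none in the other 2. In the medulla it stood at 187, 438 and 268 CPM in GFP-positive and 0.840 and 2.03 CPM in GFP-negative libraries. Gpr37l1 separated the gates without overlap in both tissues. Its rise was 816-fold (95% counting interval 225 to 6744) in the cortex (adjusted p = 6.64e-05; at least 357-fold without GFP-negative library 2) and 7.71 ± 0.57 on the log2 scale in the medulla (adjusted p = 4.08e-05; 8.46 without GFP-negative library 2). Its relative Gpr37 stood at 0.134, 0.258 and 0.450 CPM in GFP-positive and 2.5, 1.54 and 1.42 CPM in GFP-negative cortical libraries. All GFP-positive cortical libraries were the lower ones for Gpr37, and the change was not called (log2 change -2.68 ± 1.48, adjusted p = 0.258). In the medulla Gpr37 stood at 0, 2.36 and 0.627 CPM in GFP-positive and 0.694 and 0 CPM in GFP-negative libraries (log2 change 1.51 ± 1.63, adjusted p = 0.569). Ptprz1, a receptor-type phosphatase with chondroitin sulfate chains, stood at 5.61, 13.8 and 15.7 CPM in GFP-positive and 0.0373, 0.0367 and 0.0788 CPM in GFP-negative cortical libraries. In the medulla Ptprz1 stood at 195, 476 and 207 CPM in GFP-positive and 18.9 and 5.93 CPM in GFP-negative libraries. GFP-negative cortical cells held almost none of it and GFP-negative medullary cells some. Ptprz1 rose in the cortex (log2 change 7.72 ± 0.89, adjusted p = 0.000508; limma voom adjusted p = 0.0777) and in the medulla (log2 change 4.55 ± 0.67, adjusted p = 0.00115), by 5.63 without GFP-negative library 1 and 3.95 without GFP-negative library 2.

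Among secreted and matrix genes, Matn2 rose in both tissues, and Lgi4 and Sparcl1 in the medulla. Matn2, a matrilin of the extracellular matrix, stood at 54.5, 71.7 and 68.2 CPM in GFP-positive and 2.73, 4.44 and 4.29 CPM in GFP-negative cortical libraries. In the medulla Matn2 stood at 290.3, 549 and 191 CPM in GFP-positive and 21.0 and 30.5 CPM in GFP-negative libraries. Its gates did not overlap, in the cortex (log2 change 4.08 ± 0.40, adjusted p = 0.000246) or the medulla (log2 change 3.74 ± 0.45, adjusted p = 0.00037). Sparcl1, a matricellular protein of astrocytes and vessels as well as peripheral glia, stood at 28.4, 98.6 and 59.0 CPM in GFP-positive and 9.48, 29.7 and 5.79 CPM in GFP-negative cortical libraries. Medullary Sparcl1 stood at 346, 806 and 329 CPM in GFP-positive and 11.8 and 9.46 CPM in GFP-negative libraries. The cortical gates overlapped, since GFP-negative library 2 exceeded GFP-positive library 1. Sparcl1 rose in the medulla (log2 change 5.54 ± 0.89, adjusted p = 0.0018) and was not called in the cortex (log2 change 2.05 ± 0.64, adjusted p = 0.0576). There it was called under 6 of 18 alternatives (DESeq2, no filter, the replicate block and without GFP-positive cortical library 1, GFP-negative cortical library 2 or GFP-positive medullary library 2; adjusted p down to 0.0149). Lgi4, a Schwann cell ligand of Adam22 needed for timely myelination, stood at 2.58, 1.93 and 1.04 CPM in GFP-positive and 0.0373, 0.257 and 0.394 CPM in GFP-negative cortical libraries, without overlap but not called (log2 change 2.99 ± 1.00, adjusted p = 0.0726; called under 4 of 18 alternatives, adjusted p down to 0.00818). In the medulla Lgi4 stood at 9.91, 29.3 and 14.5 CPM in GFP-positive and 0.694 and 0 CPM in GFP-negative libraries and rose (log2 change 5.65 ± 1.27, adjusted p = 0.0105). The rise was 4.68 without GFP-negative library 2 and at least 160.1-fold without GFP-negative library 1, which held all 19 GFP-negative counts. Of the exon bases of Lgi4, 44.9% lie opposite Fxyd3, which stood at 6.81, 18.6 and 13.1 CPM in GFP-positive and 0.110 and 0.122 CPM in GFP-negative medullary libraries, so the reads of that stretch cannot be assigned. The differences between tissues in the change of Sparcl1 (adjusted p = 0.109), Lgi4 (adjusted p = 0.41), Cnp (adjusted p = 0.424) and Cadm4 (adjusted p = 0.709) did not pass edgeR's test, so a call in the medulla alone does not show that the tissues differed. That of Sparcl1 was called with DESeq2 and with no filter (adjusted p down to 0.0258).

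The other 5 membrane and growth-cone genes all rose with the gate in both tissues. Gpm6b, a proteolipid of glia and neurons, stood at 44.4, 34.9 and 31.9 CPM in GFP-positive and 0, 0.220 and 0.0394 CPM in GFP-negative cortical libraries. In the medulla Gpm6b stood at 505, 1013 and 555 CPM in GFP-positive and 7.78 and 8.45 CPM in GFP-negative libraries. It separated the gates widely in the cortex (log2 change 8.64 ± 0.56, adjusted p = 3.8e-05; 1935-fold, with an interval of 347 to 76448, without GFP-negative library 2) and in the medulla (log2 change 6.41 ± 0.50, adjusted p = 4.51e-05). Gap43, a growth-cone protein also made by non-myelinating Schwann cells, had 6.46, 7.82 and 5.04 CPM in GFP-positive cortical libraries and no count in GFP-negative ones. In the medulla Gap43 stood at 17.1, 39.3 and 26.2 CPM in GFP-positive and 1.13 and 0.162 CPM in GFP-negative libraries. Gap43 rose at least 171-fold in the cortex (adjusted p = 0.000922) and by 5.38 ± 0.81 in the medulla (adjusted p = 0.00242), or 7.36 without GFP-negative library 1 and 4.59 without GFP-negative library 2. Art3, of the ADP-ribosyltransferase family, stood at 79.7, 76.9 and 133 CPM in GFP-positive and 1.12, 3.52 and 0.118 CPM in GFP-negative cortical libraries. In the medulla Art3 stood at 339.8, 690.1 and 309 CPM in GFP-positive and 2.16 and 4.51 CPM in GFP-negative libraries. Art3 was uneven among GFP-negative libraries but below every GFP-positive one, in the cortex (log2 change 5.91 ± 0.80, adjusted p = 0.00115; 7.25 without GFP-negative library 2) and in the medulla (log2 change 7.07 ± 0.99, adjusted p = 0.000875; 7.69 without GFP-negative library 2). Luzp2 had 0.624, 4.30 and 2.66 CPM in GFP-positive cortical libraries, against 1 count in GFP-negative library 3, and 18.6, 32.9 and 27.7 CPM in GFP-positive medullary libraries, against none. It rose 202-fold (95% counting interval 35.8 to 8033) in the cortex (adjusted p = 0.00216; at least 45.9-fold without GFP-negative library 3, and 129.8-fold, with an interval of 22.6 to 5197, without GFP-positive library 2) and at least 473-fold in the medulla (adjusted p = 0.000461). Prnp, the prion protein gene, which is widely expressed and acts in peripheral myelin maintenance, stood at 347, 254 and 292 CPM in GFP-positive and 152, 153 and 141 CPM in GFP-negative cortical libraries. In the medulla Prnp stood at 929, 1367 and 696 CPM in GFP-positive and 194 and 133 CPM in GFP-negative libraries. It was abundant in all 4 groups, with a smaller rise in the cortex (log2 change 1.00 ± 0.24, adjusted p = 0.019) that was lost without GFP-positive library 1 (adjusted p = 0.0513), GFP-negative library 2 (0.0548) or GFP-negative library 3 (0.0700). Its rise in the medulla was 2.61 ± 0.29 (adjusted p = 0.000258).

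Between GFP-positive cells of the tissues, the 23 genes lower in the cortex included members of every role. Ptprz1 fell by 4.64 ± 0.57 on the log2 scale, cortex over medulla (adjusted p = 0.000788), 25.0-fold lower. Gpm6b fell by 4.22 ± 0.37 (adjusted p = 0.000196), Gpr37l1 fell by 3.86 ± 0.38 (adjusted p = 0.0003) and Cdh19 fell by 3.83 ± 0.55 (adjusted p = 0.00183). Cadm4 fell by 4.14 ± 0.84 (adjusted p = 0.0091), with a change of -3.36 without medullary library 2, and Luzp2 fell by 3.38 ± 0.65 (adjusted p = 0.00908), with a change of -3.98 without cortical library 2. Of these, Ptprz1 and Gpr37l1 are receptors, Gpm6b is a proteolipid, and Cdh19 and Cadm4 are adhesion molecules. Smaller falls were seen for Prnp (log2 change -1.75, adjusted p = 0.00146), Pmp22 (log2 change -1.35, adjusted p = 0.0168) and Matn2 (log2 change -2.41, adjusted p = 0.00207). L1cam, Ncam1, Nkain4, Kcna6, Sparcl1 and Mbp were also called lower, with log2 changes from -3.84 for Nkain4 to -2.38 for Mbp. The calls of Scn7a (log2 change -2.40), Lgi4 (-3.27), Gap43 (-2.10) and Art3 (-2.21) stood near the threshold, at adjusted p of 0.0359 to 0.0445. They were lost under 8 to 10 of 18 alternatives. Among these were age in the model and leaving out any 1 of the GFP-positive cortical libraries, GFP-positive medullary library 1 or GFP-positive medullary library 2. The adjusted p then rose to up to 0.145. Leaving out GFP-positive medullary library 3 also ended the calls of Lgi4, Gap43 and Art3, and leaving out any 1 GFP-negative cortical library that of Scn7a, library 1 of them that of Art3 and library 2 that of Lgi4. Mbp was also lost without cortical library 1, cortical library 2 or medullary library 2, and Pmp22 without cortical library 1 or 2, at adjusted p of up to 0.0754. Kcna1 did not overlap between the tissues but missed the threshold (log2 change -1.97 ± 0.62, adjusted p = 0.059). Mal (log2 change -0.37 ± 0.43, adjusted p = 0.646), Cnp (log2 change -0.39 ± 0.25, adjusted p = 0.349), Mag, Prx, Pllp, Mpzl2 and Gpr37 were not called, and the GFP-positive levels of Mal and Cnp overlapped between the tissues.

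**Figure D4:**
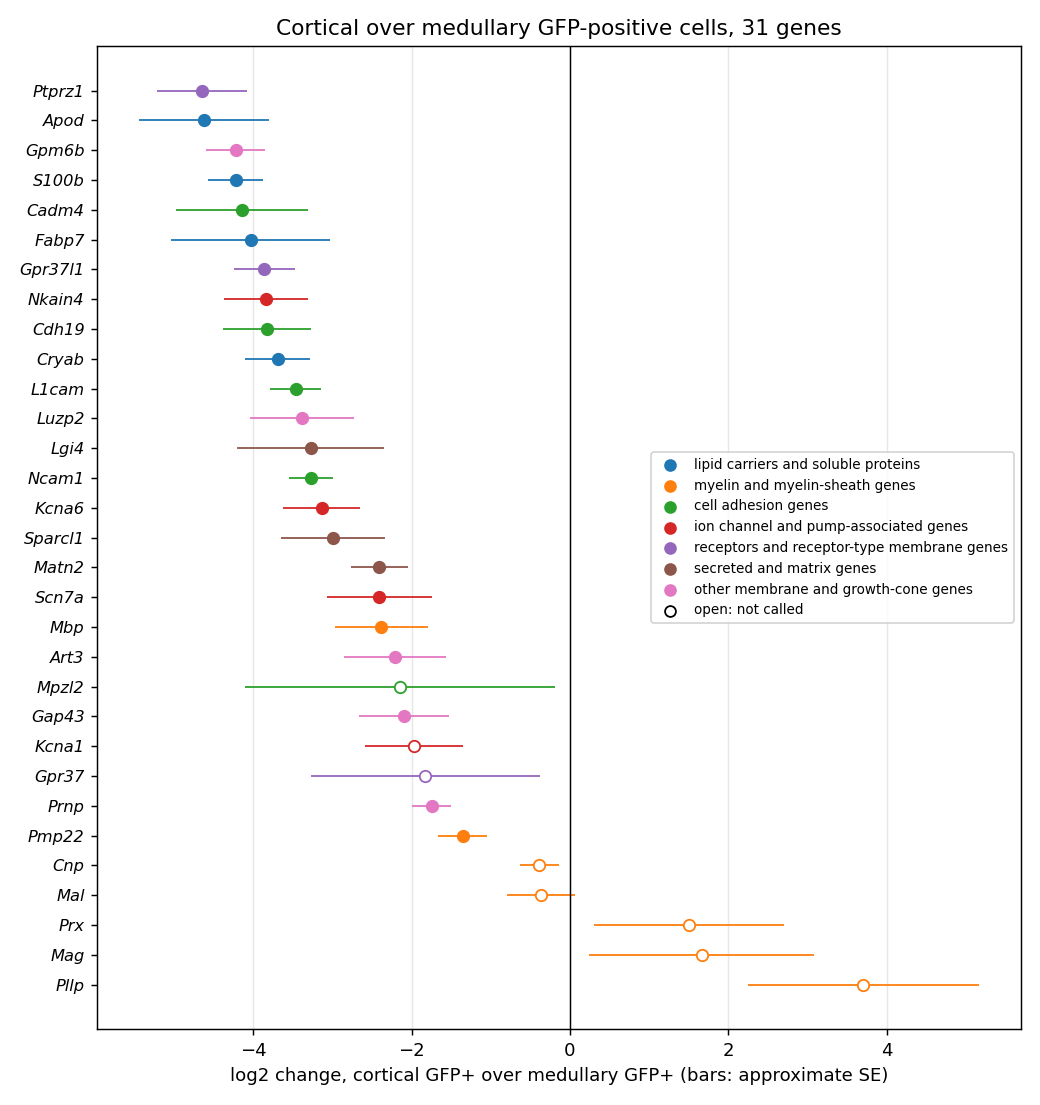
Log2 change of the 31 glial genes between GFP-positive cells of the tissues (x axis, cortex over medulla), with bars for the approximate SE and filled symbols for called genes. The 23 called genes lie left of 0, from -4.64 for Ptprz1 to -1.35 for Pmp22.

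The make-up of the summed signal, which includes genes also expressed outside glia, is described with levels divided by gene length (CPM per kilobase) and summed over the 31 genes in each library. The 4 lipid and soluble genes made up 25.4% ± 12.6 of the sum in GFP-positive cortical libraries and 59.1% ± 0.852 in GFP-positive medullary ones (SD, n = 3 each). The 7 myelin genes made up 31.1% ± 7.11 in GFP-positive cortical and 8.86% ± 0.621 in GFP-positive medullary libraries (SD, n = 3 each). Neither share overlapped between the tissues. Pmp22 alone made up 23.6% ± 5.24 in GFP-positive cortical and 7.20% ± 0.714 in GFP-positive medullary libraries. In GFP-negative cells the myelin share was higher, at 62.5% ± 4.23 in the cortex (SD, n = 3) and 42% ± 2.80 in the medulla (SD, n = 2), and Pmp22 made up 44.9% and 30.8%. GFP-positive cortical library 2 stood apart in its group, with lipid and soluble genes at 40% against 18.4% and 17.9% in the other 2 libraries. Other membrane and growth-cone genes made up 28.3% ± 7.86 in GFP-positive cortical and 14.6% ± 1.14 in GFP-positive medullary libraries. Adhesion genes made up 3.31% ± 0.907 and 5.19% ± 0.526 in GFP-positive cortical and medullary cells, receptors 1.69% ± 0.204 and 3.22% ± 0.834, secreted and matrix genes 6.53% ± 1.39 and 5.43% ± 0.429, and channel genes 3.64% ± 0.369 and 3.60% ± 0.194. With 3 libraries against 3, no exact permutation test of such a share can go below 0.10, and none was made. By level per kilobase, the highest genes in GFP-positive cortical cells were Pmp22 (138 CPM per kilobase), Prnp (127), Cryab (63.3) and Apod (58.6). In GFP-positive medullary cells they were Apod (1439.8 CPM per kilobase), Cryab (815), Prnp (426) and Fabp7 (372). Pmp22 and Prnp were also the first 2 genes in GFP-negative cells of both tissues, at 108 and 63.4 CPM per kilobase in the cortex and 73.9 and 69.9 in the medulla.

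**Figure D5:**
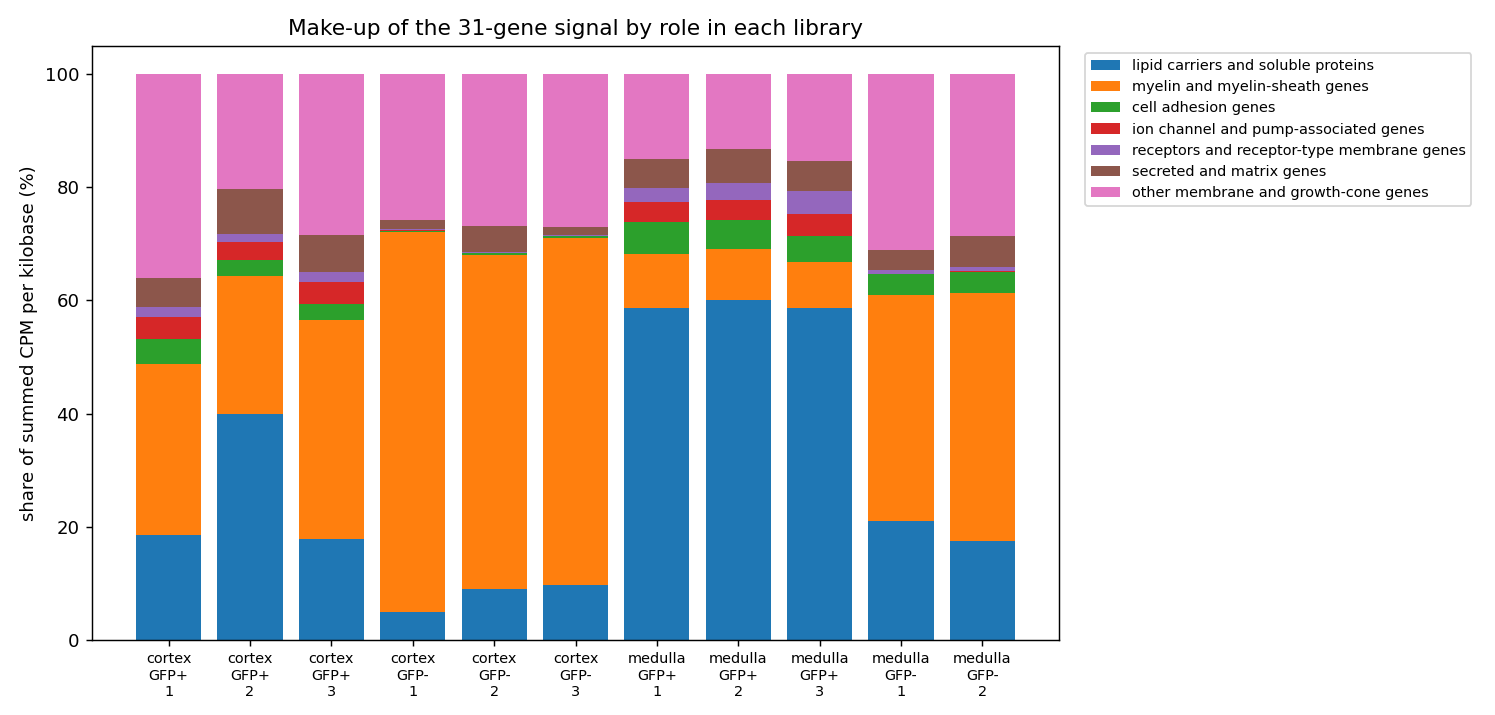
Share of each role in the summed CPM per kilobase of the 31 glial genes (y axis, percent) in each of the 11 libraries. Lipid and soluble genes take 59.1% on average in GFP-positive medullary libraries and 25.4% in GFP-positive cortical ones, where library 2 reaches 40%.

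GFP-negative cells of the tissues also differed in these genes. Of the 31, 12 were lower in GFP-negative cortical than GFP-negative medullary cells and none was higher, where 10.6% of all genes were called lower, 8.06% higher and 18.6% in either direction. The cortical libraries lay below the medullary ones without overlap for 15 genes (26.1% of all genes) and above for 4 (23.4% of all genes; 49.5% in either direction). The median log2 change was -2.12 over the 31, or -2.37 over the 29 with a level above the floor and with bounds in place of fitted values, against -0.02 over all genes. L1cam was 1307-fold lower, 95% counting interval 234 to 51699 (adjusted p = 7.59e-05; at least 286-fold lower without GFP-negative cortical library 2), Ncam1 at a log2 change of -2.99 ± 0.29 (adjusted p = 0.000417) and Matn2 at -2.75 ± 0.40 (adjusted p = 0.00214). Gpm6b stood at -6.45 ± 0.59 (adjusted p = 0.000328; 422-fold lower, with an interval of 75.4 to 16727, without GFP-negative cortical library 2). These 4 were called under all 18 alternatives run. The calls of the other 8 were lost under at least 1 alternative, and in each case with limma voom (adjusted p of 0.0615 to 0.527). They were S100b (133-fold lower, 95% counting interval 23.2 to 5308; adjusted p = 0.00113; at least 29.1-fold lower without cortical library 2), Cdh19 (279.5-fold lower, 95% counting interval 49.5 to 11099; adjusted p = 0.00343; at least 61.2-fold lower without cortical library 2, 67.7-fold lower, with an interval of 10.9 to 2801, without medullary library 1 and 469.9-fold lower, with an interval of 83.2 to 18674, without medullary library 2) and Gpr37l1 (55.7-fold lower, 95% counting interval 14.9 to 469; adjusted p = 0.00273; at least 24.4-fold lower without cortical library 2, and 33.4-fold lower, with an interval of 8.24 to 292, without medullary library 2). Ptprz1 (log2 change -7.81 ± 0.91, adjusted p = 0.000792; -6.73 without medullary library 1 and -8.41 without medullary library 2) and Apod (log2 change -5.86 ± 1.17, adjusted p = 0.00833; 434-fold lower, with an interval of 77.4 to 17163, without cortical library 2) were also among them. Gap43 was at least 17.8-fold lower (adjusted p = 0.0103), or at least 4.30-fold lower without medullary library 1 and at least 30.0-fold lower without medullary library 2. Mbp (log2 change -2.37 ± 0.65, adjusted p = 0.0304) was lost without cortical library 1 or 2 or either medullary library, at adjusted p of up to 0.144, and Scn7a (log2 change -5.08 ± 1.41, adjusted p = 0.0322) was lost without any 1 cortical library, and moved to -6.07 without medullary library 1 and to 1.45-fold lower, with an interval of 0.131 to 10.1, and not called, without medullary library 2. Kcna6 and Luzp2 were at or under the floor in both GFP-negative groups and allow no fold.

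Genes of Schwann cells and satellite glia outside the 31 were called mostly in the same directions. Of 47 such genes, 44 were tested. Cntn2, Gjb1 and Ugt8a did not pass the filter on low counts. All 119 counts of Ugt8a lay in GFP-positive cortical library 3 (5.36 CPM). The 47 include Nes, whose reporter set the gate, and the 6 defining genes summed above. The counts by gate are therefore not separate from those results and do not test the list. In the cortex 23 of 44 rose and 1 fell (Itga6), where 7.14% of all genes tested were called higher and 7.59% lower. In the medulla 31 rose and 2 fell (Gldn and Itga6), where 10.2% of all genes were called higher and 11.1% lower. Between GFP-positive cells, 31 were lower and 2 higher (Gldn and Itga6) in the cortex than in the medulla. Of all genes, 9.45% were called lower there and 6.04% higher. Between GFP-negative cells 10 were lower and 4 higher, where 10.6% of all genes were called lower and 8.06% higher. The 4 of 44 called higher there lie close to the share of all genes. The other glial genes named are the 5 with the largest fitted log2 change in each comparison, an order that depends on the prior count of the fit where a group has no count. In the cortex they were Sostdc1 (at least 81.8-fold, adjusted p = 0.0125, limma voom adjusted p = 0.141), a secreted antagonist of bone morphogenetic proteins, Gfra3 (403-fold, 95% counting interval 71.9 to 15974; limma voom adjusted p = 0.0667), a neurotrophic factor receptor, and Col28a1 (346-fold, 95% counting interval 61.6 to 13712; limma voom adjusted p = 0.110), a collagen of peripheral glia. Entpd2 rose by 7.78 (adjusted p = 0.000467; limma voom adjusted p = 0.0533; 370.3-fold, with an interval of 126 to 1798, without GFP-negative library 3), and Chl1, an adhesion molecule related to L1cam, rose by 7.72 (adjusted p = 0.00179; 1163-fold, with an interval of 208 to 45959.5, without GFP-negative library 2). Sostdc1 was at least 50.4-fold higher without GFP-positive library 2 and Gfra3 at least 88.3-fold higher without GFP-negative library 2. Col28a1 was at least 75.8-fold higher without GFP-negative library 2 and 228-fold, with an interval of 40.1 to 9060.3, without GFP-positive library 2. By its bound Sostdc1 lies below Ngfr (138-fold, 95% counting interval 24.3 to 5494), Foxd3 (134-fold, 95% counting interval 36.6 to 1112) and Sox10 (log2 change 6.76). In the medulla they were Gfap, described separately, Sostdc1 (at least 2240.3-fold), Sox10 (at least 1816-fold), Foxd3, a transcription factor of neural crest and early glia (at least 697-fold), and Gjc3, a gap junction protein of glia (1828-fold, 95% counting interval 328 to 72248). Without GFP-positive library 2 the rise was at least 1194-fold for Sostdc1, at least 1124-fold for Sox10 and at least 347-fold for Foxd3. Gjc3 rose 866-fold, with an interval of 155 to 34208, without GFP-negative library 1 and at least 321-fold without GFP-negative library 2. By its bound Foxd3 lies below Col28a1 (log2 change 9.93) and Sema3b (log2 change 9.79).

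Gfap, an intermediate filament of non-myelinating Schwann cells and satellite glia, stood at 1.38, 1.42 and 2.12 CPM in GFP-positive and 1.64, 1.32 and 1.10 CPM in GFP-negative cortical libraries, and at 121, 369.6 and 158 CPM in GFP-positive and 0 and 0.447 CPM in GFP-negative medullary ones. The cortical gates overlapped, and the medullary ones were far apart. Gfap rose in the medulla (log2 change 9.95 ± 0.90, adjusted p = 8.92e-05; 8.90 without GFP-negative library 1, 9.31 without GFP-positive library 2 and at least 2169-fold without GFP-negative library 2) and was not called in the cortex (log2 change 0.27 ± 0.58, adjusted p = 0.809). Between GFP-positive cells it was lower in the cortex (log2 change -7.04 ± 0.62, adjusted p = 0.000196; -6.41 without medullary library 2), ahead of Sostdc1 (log2 change -5.24; -5.90 without cortical library 2 and -4.49 without medullary library 2), Col28a1 (-5.15; -4.56 without medullary library 2), Fbln2 (-5.07; -5.99 without cortical library 2) and Serpine2 (-4.56; -3.97 without medullary library 2). Between GFP-negative cells they were Ngfr (305-fold lower, 95% counting interval 54.2 to 12125; at least 66.9-fold lower without cortical library 2), Pou3f1 (12.7-fold lower, 95% counting interval 3.88 to 65.9; 25.1-fold lower, with an interval of 4.11 to 1030.1, without cortical library 2; lost under 11 of 18 alternatives), Erbb3 (-3.17), Nfasc (-2.95) and Ednrb, an endothelin receptor (-2.69; -3.31 without medullary library 1 and -1.55, not called, without medullary library 2; limma voom adjusted p = 0.0600). The change with the gate differed between the tissues for 7 of the 44 genes, all smaller or more negative in the cortex. They were Gfap, Serpine2, Adam23, Dag1, Atp1b2, Fxyd1 and Cd59a. In that test 0.756% of all genes were called lower and 0.857% higher.

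In the authors' deposited table for the cortex, 18 of the 31 genes had an adjusted p below 0.05, all higher in GFP-positive cells, where 3.64% of genes passed. The authors' deposited table for the medulla had 24 of the 31 higher in GFP-positive cells, where 6.13% of genes passed. In the authors' deposited table of GFP-positive cortical against GFP-positive medullary cells, 14 of the 31 were lower in the cortex, where 4.09% of genes passed. The adjusted p of the authors' deposited tables cannot come from a test against no change. Prnp, for example, has a log2 change of -1.78, an SE of 0.247 and an adjusted p of 0.0741 in the authors' deposited table of GFP-positive cells. The null hypothesis of that test is not given in the sources used here, so these counts are not set against the calls of edgeR.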

How the data were processed

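RNA from 11 libraries of sorted adrenal cells was measured by sequencing. The authors deposited raw read counts per gene and 3 comparison tables that hold, per the file headers, log2 fold changes with p-values and a normalized signal per library. The signal columns matched their libraries in the count table in 17 of 17 cases. Tools listed in the submitters' processing notes, with no role, are featureCounts 1.6.0, GSNAP, DESeq2 1.18.1, DESeq and bcl2fastq 2.19.1, and the build is mm10. Left out were 92 spike-in sequences (10 counts). The 31 genes, the other lists and the tests were chosen with earlier results of these data known. The text names all 31 genes by role and, from the other glial genes, the 5 largest called changes per comparison; 3 genes of those lists are not reported here and were left out of their sums and counts. Single genes named for another reason (Ncmap, Fa2h, Drp2, Cmtm5 and Fxyd3) were chosen after their values were seen.

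The test on counts was that of edgeR 4.0.16 under R 4.3.3 (filterByExpr by group, TMM, glmQLFit and glmQLFTest, all libraries in 1 fit with 7 residual degrees of freedom) and adjusted after Benjamini and Hochberg over 20893 genes. An approximate SE was taken as the size of the log2 change over the root of its F statistic. A group with no count was set to 3 counts in all, and a group with 1 to 3 counts gives a ratio of CPM with an exact 95% interval. CPM per kilobase uses the gene length in the authors' deposited tables. Replicate libraries differed by more than sampling noise (chi-square per degree of freedom 27.0 to 94.1). On simulated data for the cortical comparison over 19994 genes, 20% of genes changed 2-fold, 62% changed 4-fold and 88% changed 16-fold were recovered. The changed genes were drawn from those with higher mean counts, so these shares do not apply to genes near the floor. There were 18 alternatives per comparison: 2 scalings, no filter, DESeq2 1.42.0, limma 3.58.1 (voom), age, replicate block and leaving out each library.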

Additional observations from a re-analysis of the deposited data

Results flagged for a closer look

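A difference between the tissues in the change with the gate, by the test of the difference itself, was found for L1cam among the 31 genes and for Gfap, Serpine2, Adam23, Atp1b2 and Fxyd1 among the other glial genes named by their size. For L1cam the log2 difference, cortex minus medulla, was 6.40, with the 1 count in GFP-negative cortical cells behind it.

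Gfap differed by -9.68 (adjusted p = 0.00776), or -8.64 without GFP-negative medullary library 1, and -9.04 without GFP-positive medullary library 2, and limma voom gave an adjusted p of 0.107. Without GFP-negative medullary library 2 no GFP-negative medullary count of Gfap is left, so no size is given. Serpine2, a secreted protease inhibitor, differed by -4.96 (adjusted p = 0.0305), lost under 10 of 18 alternatives, and by -4.37 without GFP-positive medullary library 2. It stood at 33.0, 46.4 and 44.5 CPM in GFP-positive and 9.07, 1.58 and 9.33 CPM in GFP-negative cortical libraries, and at 617, 1637 and 680.1 CPM in GFP-positive and 4.13 and 6.01 CPM in GFP-negative medullary ones. Adam23, a membrane protein that binds Lgi family ligands, differed by -4.31 (adjusted p = 0.0261), lost without GFP-negative cortical library 1 (0.0567) or 2 (0.0606) or GFP-negative medullary library 2 (0.106). It stood at 25.3, 31.5 and 11.3 CPM in GFP-positive and 79.2, 61.2 and 38.9 CPM in GFP-negative cortical libraries, where the GFP-positive ones were all lower, and at 109.6, 260.5 and 113 CPM in GFP-positive and 25.8 and 16.9 CPM in GFP-negative medullary ones, where they were all higher. Atp1b2, a sodium pump subunit of glia, differed by -3.43 (adjusted p = 0.0332), lost under 9 of 18 alternatives, and by -4.08 without GFP-negative medullary library 1 and -2.79 without GFP-positive medullary library 2. It stood at 43.5, 62.0 and 66.7 CPM in GFP-positive and 100.2, 120.1 and 86.8 CPM in GFP-negative cortical libraries, and at 118, 357 and 149.8 CPM in GFP-positive and 46.7 and 22.1 CPM in GFP-negative medullary ones. Fxyd1, a regulator of the sodium pump, differed by -2.95 (adjusted p = 0.0412), lost under 11 of 18 alternatives, and by -3.92 without GFP-negative medullary library 1.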

How the results depend on the processing

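Of the calls of the 31 genes, 15 of 20 in the cortex, 22 of 25 in the medulla, 16 of 23 between GFP-positive cells, 4 of 12 between GFP-negative cells and 0 of 1 for the difference between tissues held under all 18 alternatives. With limma voom 5 of the 31 were called between GFP-negative cells. The difference between tissues called 1 of the 31, against 3 with total counts, 6 with no filter, 10 with DESeq2 (L1cam, Cryab, Pmp22, Mal, Nkain4, Ptprz1, Sparcl1, Gap43, Gpm6b and Prnp), 0 with limma voom and 1 to 4 leaving out 1 library. Over all genes that difference called 337, against 1553 with DESeq2, 93 with age, 176 with the replicate block and 56 to 489 leaving out 1 library. Leaving out 1 library gave 1959 to 3252 genes in the cortex (3078 with all), 2956 to 4390 in the medulla (4461), 2006 to 3370 between GFP-positive cells (3236) and 1411 to 4045 between GFP-negative cells (3892). The cause of these shifts was not tested. Where a GFP-negative medullary library was left out, the remaining one was assumed to vary like the other groups.

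Scaling to total counts moved the share of higher calls to 38% in the cortex, against 48.5%, to 52.7% between GFP-negative cells, against 43.2%, and to 31.1% for the difference between tissues, against 53.1%, where the median of all genes moved to -0.19. With levels not divided by length, lipid and soluble genes made up 17.4% of the GFP-positive cortical and 45.3% of the GFP-positive medullary sum, and myelin genes 31.2% and 9.79%.

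Correlations of deviations from the group mean lay between -0.014 and 0.114 for same-numbered libraries and between -0.086 and 0.061 for differently numbered ones. Between the cortical gates they were 0.052 to 0.114 for the same number and -0.086 to -0.009 otherwise. Between GFP-positive cells of the tissues they were 0.047 to 0.085 for the same number and -0.056 to 0.001 otherwise. Same-numbered libraries were thus weakly alike there, and the main fit took no account of the number. Deviations within a group cancel out, so the values for the same and for different numbers are not independent of each other. Number 2 was of 2.5 months in GFP-positive medullary cells and of 3.5 months in the other groups. It therefore cannot mark the same mice there, and the replicate block joins libraries of both ages under that number. With the replicate block 2815 genes were called in the cortex, 3985 in the medulla, 2908 between GFP-positive cells and 3339 between GFP-negative cells. Among the 31 genes the block lost the calls of Cnp in the medulla (adjusted p = 0.0605), Art3 (0.0634), Lgi4 (0.0785) and Gap43 (0.0892) between GFP-positive cells and Scn7a (0.0546) between GFP-negative cells. It gained those of Cadm4 (0.0477) and Sparcl1 (0.0194) in the cortex and Fabp7 (0.0373) between GFP-negative cells.

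No called change reversed its sign. Among the 31 genes, 39 of 2754 values under an alternative did, all of changes not called with all libraries. Leaving out 1 library, the fitted log2 change ranged from -3.12 to 1.06 for Mag in the cortex, from -0.66 to 7.55 for Prx, -0.16 to 7.60 for Gpr37 and -1.28 to 0.53 for Pllp in the medulla, from -1.65 to 2.27 for Mag and -5.75 to 1.04 for Mpzl2 between GFP-positive cells, and from -1.33 to 6.88 for Prx, -1.58 to 5.48 for Lgi4, -0.48 to 0.88 for Sparcl1 and -0.39 to 0.16 for Prnp between GFP-negative cells. For the difference between tissues it ranged from -0.43 to 0.46 for Mbp, -5.37 to 2.83 for Prx, -0.089 to 4.39 for Fabp7, -0.079 to 3.79 for Apod, -1.91 to 3.66 for Scn7a, -1.51 to 3.69 for Kcna1 and -1.78 to 0.19 for Art3. The values of 7.55, 7.60, -5.75, 6.88, 5.48, -5.37, 4.39 and 3.69 among these come from fits in which a group has no count left, depend on the prior count and are no measure of size. With limma voom the sign turned for Mag (-1.75 in the cortex, -0.18 between GFP-positive cells), for Prx (1.68), Lgi4 (0.55) and Pllp (-0.062) between GFP-negative cells, and for Mbp (0.16) and Prx (-0.64) in the difference between tissues. With age in the model it turned for Mag in the cortex (-0.48), Prx in the medulla (-0.37) and the Mbp difference (0.56), and with the replicate block for Mag in the cortex (-0.39) and the Mbp difference (0.22). That Mbp difference, -0.01, was 0.011 with DESeq2 size factors in edgeR and 0.012 with DESeq2. The cause was not tested. The alternatives for the other glial genes were added after seeing the data. Kcna6 and Luzp2 gave no value between GFP-negative cells, where both groups lay at or under the floor. Genes below about 0.1 CPM are not resolved at this depth.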
